A study of Mus musculus with 4 samples.

Results

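Mature oligodendrocytes of the mouse arcuate nucleus (ARC), a hypothalamic region that controls feeding and energy expenditure, were examined in 4 single-nucleus RNA sequencing (snRNAseq) libraries. Nuclei were chosen by the UMI counts of 8 genes of mature myelinating cells, *Mag*, *Mog*, *Mal*, *Cldn11*, *Ermn*, *Trf*, *Hapln2* and *Opalin*. A UMI (unique molecular identifier) count is the number of distinct RNA molecules read in a droplet. A barcode was a member if at least 3 of these gate genes had 1 or more UMI, if together they made up 0.2% or more of its UMIs, and if fewer than 2 of the astrocyte genes *Slc7a10*, *Itih3*, *Ntsr2* and *Fgfr3* were detected. In all, 1914 of 39176 barcodes kept (4.89%) were members, namely 218 from DOCA-salt 1, 1126 from DOCA-salt 2, 87 from Sham 1 and 483 from Sham 2. The gate genes and the astrocyte genes chose the members, so their levels in these nuclei are given as a description only.

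Tissue came from male wildtype C57BL/6J mice aged 10 weeks. DOCA-salt mice received a subcutaneous pellet of deoxycorticosterone acetate (DOCA) and a choice of saline or water to drink for 3 weeks, and Sham mice had the surgery without a pellet and drank water over the same time. The hormone and the salt were given together, so their parts in any difference cannot be told apart. Each library pooled nuclei from bilateral ARC punches of 2 mice, and each group had 2 libraries, so n = 2 in every comparison below.

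Oligodendrocytes wrap axons in myelin, a stack of membrane held together by proteins such as myelin basic protein (*Mbp*), and they make much of the cholesterol that this membrane needs. They arise from precursor cells that carry *Pdgfra*, under transcription factors that include *Olig2*, *Sox10* and *Myrf*. DOCA is a mineralocorticoid, a steroid that acts through the mineralocorticoid receptor (*Nr3c2*). *Sgk1*, a kinase that regulates ion channels and transporters, is a classic target gene of both mineralocorticoids and glucocorticoids.

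The libraries were of unequal depth. The members of Sham 1 held a median of 5004 UMIs and 2662 genes per nucleus, well above Sham 2 (1806 UMIs), DOCA-salt 2 (1155 UMIs) and DOCA-salt 1 (1095 UMIs). Summed over members, the libraries held 401573 (DOCA-salt 1), 2210331 (DOCA-salt 2), 537525 (Sham 1) and 1260395 UMIs (Sham 2). Median mitochondrial content was similar, at 6.17%, 8.36%, 6.52% and 7.18% of UMIs in that order. No member barcode was shared between libraries. Below, 4 values given in a row follow the order DOCA-salt 1, DOCA-salt 2, Sham 1 and Sham 2, and levels are UMIs of a gene per 1000000 UMIs of the summed members (CPM).

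Genes that the gate did not use showed a mature oligodendrocyte identity in each library. *Mobp*, a protein of compact myelin, was at 956, 858, 902 and 1162 CPM in members and at 66.1, 202, 293 and 235 CPM in all other nuclei. These are ratios of 14.5, 4.24, 3.08 and 4.95, with the lowest in the deepest library, Sham 1. *Mbp* was at 2012, 1713, 2048 and 3061 CPM in members and at 188, 437, 626 and 644 CPM in other nuclei. After each nucleus was thinned to 500 UMIs, 70.2%, 64.4%, 64.4% and 69.6% of members had an *Mbp* UMI, against 8.45%, 18.5%, 27.8% and 25.9% of other nuclei. *Cnp*, an enzyme of the cytoplasmic channels of myelin, was at 1093, 926, 779 and 951 CPM. The transcription factor genes were lower, with *Olig1* at 364, 352, 251 and 298 CPM, *Olig2* at 105, 64.7, 55.8 and 66.6 CPM, *Sox10* at 117, 80.1, 87.4 and 83.3 CPM and *Myrf*, which switches on myelin genes, at 167, 93.2, 125 and 124 CPM. Since the gate selected on myelin genes, these comparisons with other nuclei carry no test.

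Of 1565 non-gate genes at 100 CPM or more in the members of every library, 8 were at 10 or more times the level of other nuclei in all 4. The genes named here were chosen after their values were seen. They included *Ugt8a* and *Fa2h*, enzymes of the galactolipids of myelin, *Aspa*, which breaks down N-acetylaspartate, *Gsn*, which severs actin filaments, *Ptgds*, the brain prostaglandin D2 synthase, *Tmem63a*, a mechanosensitive ion channel, and *1700047M11Rik*. *Ugt8a* was at 326, 228, 249 and 390 CPM in members. *Aspa* was at 202, 142, 132 and 171 CPM.

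Markers of other cell types were present at unequal levels. The summed 10-gene neuron list was at 6646, 7025, 6958 and 6561 CPM in members, below its level in other nuclei of 12489, 9666, 11135 and 11490 CPM. Its most abundant gene, the long non-coding RNA *Snhg11*, accounted for 3892, 3352, 3122 and 3467 CPM of the members' sum. The 8 precursor genes summed to 286, 247, 277 and 258 CPM in members and to 4385, 3977, 3453 and 3827 CPM in gated precursors. The 10 astrocyte genes summed to 374, 550, 417 and 639 CPM in members, against 4603, 4016, 3848 and 3759 CPM in gated astrocytes. The microglia list reached at most 184 CPM and the endothelial list at most 118 CPM. *Pmp2*, a myelin protein gene of Schwann cells, was at 0 UMIs in the members of every library, which allows levels of up to 7.47, 1.36, 5.58 and 2.38 CPM (3 counts). At least 3 neuron-list genes were detected in 92, 668, 87 and 358 members, which is every member in Sham 1. A droplet with oligodendrocyte and neuron RNA may hold both nuclei or free RNA, and which it was cannot be told apart here.

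**Figure D1:**
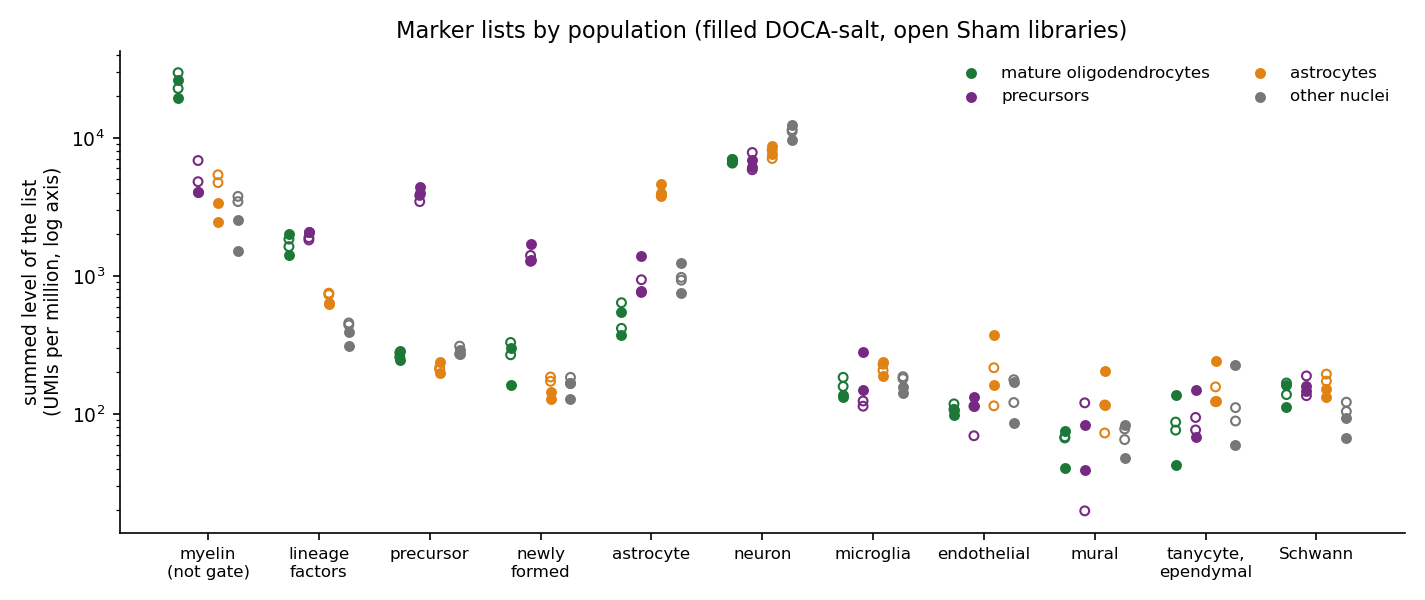
Summed level (CPM, log axis) of 11 marker gene lists in mature oligodendrocytes, precursors, astrocytes and all other nuclei, 1 point per library, filled for DOCA-salt and open for Sham. The myelin list without the gate genes is at 19374 CPM or more in mature oligodendrocytes and at 3767 CPM or less in other nuclei, while the neuron list is present in every population.

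Members with a low and a high gate share differed in both myelin and neuronal RNA. Between shares of 0.2 to 0.3% and of 1% or more, the summed myelin list (without the gate genes) went from 9903, 8794, 10006 and 12394 CPM to 49570, 41298, 44581 and 51934 CPM, and the summed neuron list from 10453, 9531, 10467 and 9274 CPM to 2119, 2862, 3985 and 2785 CPM. In the members with the lowest gate share, 0.2 to 0.3% of UMIs, *Mobp* was at 406, 462, 442 and 596 CPM and *Meg3*, a long non-coding RNA abundant in neurons, at 10680, 7011, 12395 and 10314 CPM. Among members with a gate share of 1% or more, *Mobp* was at 1828, 1663, 1796 and 1397 CPM and *Meg3* at 1147, 962, 2351 and 1820 CPM. The members at the low edge were also larger, with medians of 4268, 3991, 10617 and 3320 UMIs against 961, 876, 3988 and 1652 UMIs. Just inside the threshold, at 0.2 to 0.25%, there were 17, 106, 10 and 36 members with *Mobp* at 287, 417, 416 and 690 CPM. Just outside it, at 0.15 to 0.2%, there were 21, 129, 7 and 38 barcodes with *Mobp* at 336, 337, 463 and 568 CPM. The *Mobp* levels on the 2 sides of the threshold overlapped. The astrocyte genes kept out 29, 265, 78 and 169 barcodes that met the other criteria. Members at 1% or more numbered 115, 410, 22 and 172, so few nuclei of Sham 1 had such a share.

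**Figure D2:**
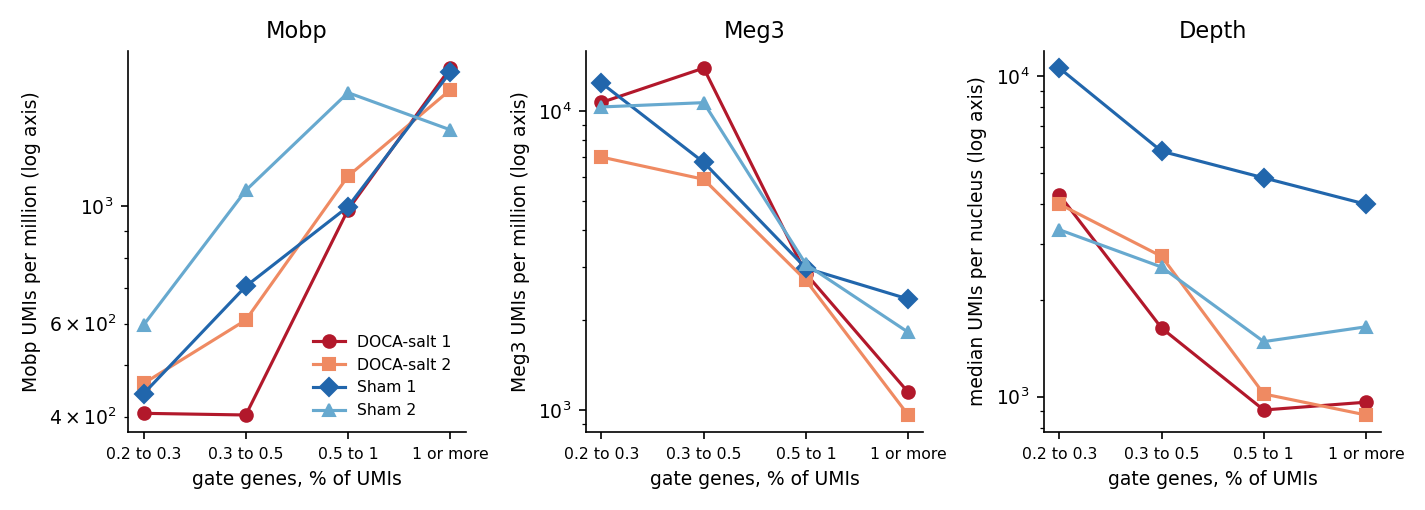
*Mobp* and *Meg3* levels (CPM, log axes) and median UMIs per nucleus (log axis) of members grouped by the percent of their UMIs on the 8 gate genes, 1 line per library. *Mobp* is higher at 1% or more than at 0.2 to 0.3% in all 4 libraries, while *Meg3* and the median UMIs are lower there.

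Whether DOCA-salt altered the number of mature oligodendrocytes was addressed by their share of all barcodes kept. It was 2.12% in DOCA-salt 1 (95% Wilson interval 1.85 to 2.41), 5.96% in DOCA-salt 2 (5.63 to 6.30), 3.95% in Sham 1 (3.21 to 4.85) and 6.23% in Sham 2 (5.71 to 6.78). The 2 groups overlapped, at 4.04% ± 2.72 in DOCA-salt and 5.09% ± 1.61 in Sham (SD, n = 2 each). The difference of −1.05 percentage points was smaller than the spread between libraries (exact two-sided permutation test, p = 0.667, the smallest possible being 0.3333). With a gate share of 1% or more, the shares were 1.12%, 2.17%, 1.00% and 2.22%, a difference of 0.03 points. DOCA-salt 1 and DOCA-salt 2 thus differed from each other more than the groups did.

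**Figure D3:**
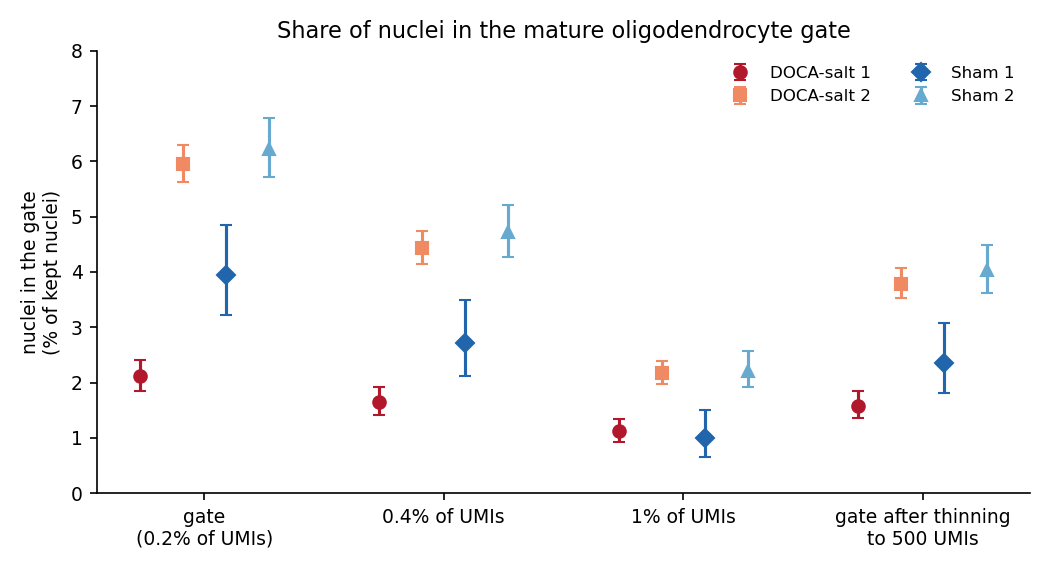
Percent of barcodes kept that were mature oligodendrocytes, 1 point per library with its 95% Wilson interval, under the gate, with 0.4% or 1% of UMIs on gate genes, and with the gate applied after thinning to 500 UMIs. Under the gate, DOCA-salt libraries at 2.12% and 5.96% overlap Sham libraries at 3.95% and 6.23%, and the groups overlap in each of the other settings.

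The gate genes themselves varied between libraries. *Mal*, a proteolipid that sorts myelin cargo, was at 2420, 1562, 2398 and 2255 CPM, and *Trf*, which carries iron, at 1263, 1215, 899 and 1377 CPM. *Mag*, the adhesion molecule next to the axon, was at 1238, 1053, 999 and 1173 CPM. *Cldn11*, the tight junction protein of myelin, was at 1078, 969, 811 and 877 CPM. *Mog*, on the outer myelin surface, was at 451, 420, 329 and 501 CPM, and the cytoskeletal gene *Ermn* at 383, 222, 340 and 421 CPM. *Hapln2*, a link protein of the nodes of Ranvier, was at 279, 244, 98.6 and 187 CPM, and *Opalin*, a membrane glycoprotein, at 244, 285, 123 and 189 CPM. Both DOCA-salt values lay above both Sham values in *Hapln2*, *Opalin* and *Cldn11*, and the groups overlapped in the other 5 gate genes. Over all genes tested, 22.7% lay entirely higher in DOCA-salt.

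The comparison of DOCA-salt with Sham within the gated nuclei asked which genes of mature oligodendrocytes responded to the treatment. UMIs were summed per library and tested with edgeR's quasi-likelihood test, with Benjamini-Hochberg adjustment over 10056 genes and a false discovery rate (FDR) under 0.05. In total, 8 genes were lower in DOCA-salt (0.0796% of those tested) and 0 were higher (0.0%). DESeq2 called 2 genes, *Bc1* and *Npy*, both lower, and not *Hist1h1e* (FDR = 0.0767), *Nts* (0.119), *mt-Atp8* (0.474), *Nos1ap* (0.621), *Kif1c* (0.925) or *S100b* (1.00). Without adjustment, 344 genes were higher (3.42%) and 618 lower (6.15%) at p under 0.05. The median log2 change over all genes was −0.00. In 2287 genes (22.7%) both DOCA-salt values lay above both Sham values, and in 1595 (15.9%) both lay below.

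*Bc1*, a short cytoplasmic non-coding RNA known from neuronal dendrites (chromosome 7, 144914470 to 144914637), had the largest fall. Its level was 214 and 335 CPM under DOCA-salt, against 2169 and 3719 CPM under Sham, on 86, 740, 1166 and 4687 UMIs. The log2 change was −3.46 ± 0.34 (SE, n = 2 each, FDR = 1.08e-05). Both DOCA-salt libraries lay far below both Sham libraries in all other nuclei as well, at 208, 312, 2221 and 3115 CPM. There, in precursors and in astrocytes the log2 changes were −3.39, −3.12 and −3.47. Members at 1% gate share or more had 168, 436, 1917 and 2937 CPM. The difference between the members' change and that of other nuclei was −0.03 on the log2 scale. The level thus followed the library in every population, and with 2 libraries a group, the treatment and other differences between libraries cannot be told apart.

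In every other gene called in members except *Npy*, both DOCA-salt libraries were also below both Sham libraries in the rest of the nuclei. *mt-Atp8*, a subunit of ATP synthase encoded in mitochondrial DNA (chromosome M, 7766 to 7969, overlapping *mt-Atp6*), was at 187, 86.0, 424 and 623 CPM and fell by 2.11 ± 0.33 on the log2 scale (SE, edgeR FDR = 0.00581). In other nuclei the log2 change was −2.01. *Hist1h1e*, a linker histone (chromosome 13, 23620629 to 23622558, overlapping *Hist1h2be* and *Gm11398* on the same strand), was at 4.98, 4.52, 37.2 and 40.5 CPM. It rested on 2, 10, 20 and 51 UMIs. Its log2 change was −3.12 (FDR = 0.00159), beside −2.16 in other nuclei. *Nts*, the neuropeptide neurotensin (chromosome 10, 102481756 to 102490486), was at 14.9, 24.0, 94.9 and 65.1 CPM, with a log2 change of −1.89 ± 0.32 (FDR = 0.0124). With a gate share of 0.4% or more the change was −2.76 (FDR = 0.0145), and of 1% or more −4.32 (FDR = 0.0160). The gate of 1% or more held only 115, 410, 22 and 172 members, so its value rests on few nuclei. *Nts* was also called in astrocytes, at −2.44, and its log2 change in other nuclei was −2.51. For none of the 8 was the difference in response between members and other nuclei called.

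*Npy*, a peptide of hunger-promoting ARC neurons (chromosome 6, 49822710 to 49829507), was at 47.3, 17.2, 138 and 138 CPM, lower in both DOCA-salt libraries, a log2 change of −2.54 ± 0.34 (edgeR FDR = 0.00103). It was −1.60 without DOCA-salt 2 and −3.05 without DOCA-salt 1. The *Npy* call was lost with a gate share of 0.4% or more (−2.52, edgeR FDR = 0.0598) and of 1% or more (−2.31, FDR = 0.0776). It was also lost with members thinned to 500 UMIs (−2.76, FDR = 0.0980). In other nuclei *Npy* was at 240, 14.3, 126 and 218 CPM, so that the groups overlapped there, with a log2 change of −0.51 ± 1.04. *S100b*, a calcium-binding protein of oligodendrocytes and astrocytes (chromosome 10, 76253853 to 76261159), was at 87.2, 57.9, 127 and 294 CPM. Thinned to 500 UMIs, it was detected in 2.75%, 3.46%, 6.90% and 13.5% of members and in 2.75%, 3.60%, 7.18% and 6.98% of other nuclei. Its log2 change was −1.74 ± 0.33 (FDR = 0.0429), beside −1.42 in other nuclei, and without Sham 2 it was −0.94 (FDR = 0.641). *Kif1c*, a kinesin motor (chromosome 11, 70700548 to 70731964, overlapping *Mir6925* on the same strand), was at 19.9, 14.5, 44.6 and 55.5 CPM. Its log2 change was −1.76 (FDR = 0.0429), beside −0.67 in other nuclei. The difference for *Kif1c*, −1.14, had an FDR of 0.141. *Nos1ap*, an adaptor of neuronal nitric oxide synthase (chromosome 1, 170302668 to 170589861, overlapping *Gm7694* on the same strand), was at 9.96, 17.6, 55.8 and 50.0 CPM. Its log2 change was −1.78 (FDR = 0.0429), beside −1.03 in other nuclei. Its call was lost in 4 of 13 alternatives, among them a gate share of 0.4% or more (−1.42, FDR = 0.685) and the gate after thinning (−1.33, FDR = 0.376). The calls of *S100b* and *Kif1c* were lost in 7 of 15 and 7 of 13 alternatives. In members at 1% gate share or more *Kif1c* was at 15.3, 17.6, 10.1 and 31.1 CPM, so that the groups overlapped. Leaving out Sham 2 also ended the calls of *Hist1h1e* (FDR = 0.395) and *Kif1c* (FDR = 0.3999), with log2 changes of −3.03 and −1.55 there, and leaving out DOCA-salt 2 that of *Kif1c* (−1.42, FDR = 0.182).

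**Figure D4:**
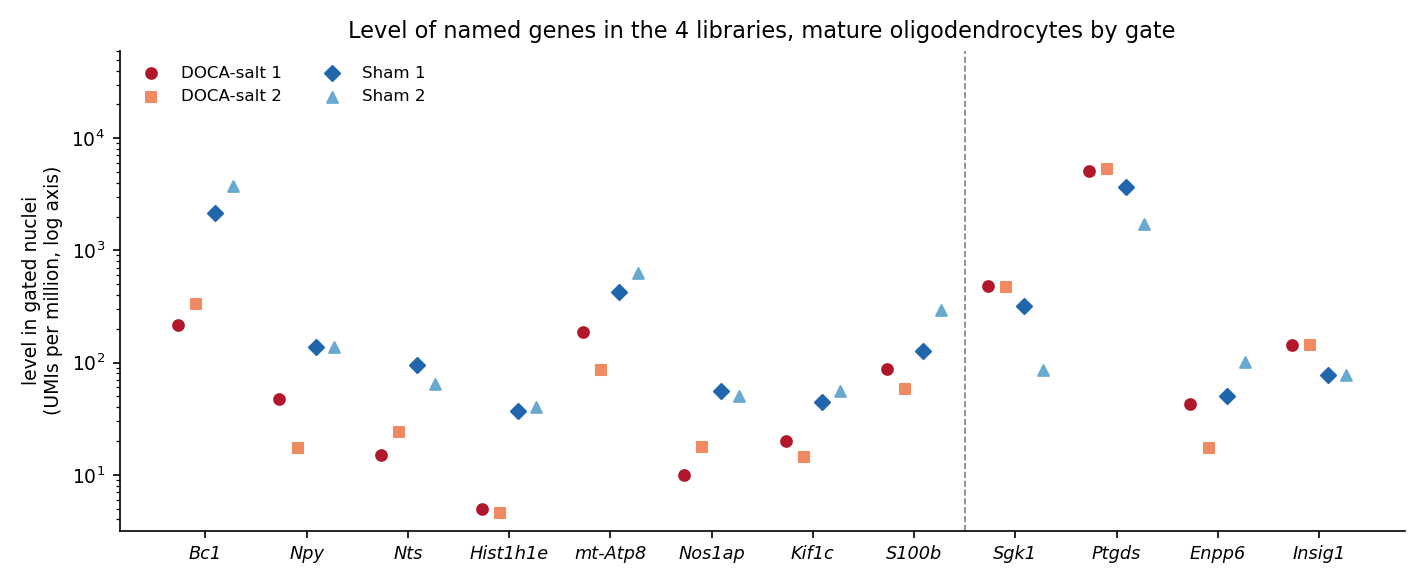
Level (CPM, log axis) in mature oligodendrocytes of the 8 genes called, left of the dashed line, and of *Sgk1*, *Ptgds*, *Enpp6* and *Insig1*, not called, 1 point per library. Both DOCA-salt points of *Bc1*, at 214 and 335 CPM, lie below both Sham points, and Sham 2 is the lowest library in *Sgk1* and *Ptgds*.

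Of the 24 genes listed for corticosteroid action, 17 were tested and 0 were called, with a median log2 change of 0.19. The glucocorticoid receptor gene *Nr3c1* was at 115, 120, 127 and 129 CPM and the mineralocorticoid receptor gene *Nr3c2* at 19.9, 10.4, 20.5 and 15.1 CPM. No UMI of *Hsd11b2*, the enzyme that protects the mineralocorticoid receptor from glucocorticoids, was found in members, with the same limits. *Sgk1* was at 478, 468, 318 and 86.5 CPM. The 2 groups did not overlap, but the log2 change of 1.22 ± 0.38 did not pass the test (SE, edgeR FDR = 0.291). Its call depended on the setting, with 6 of 15 alternatives calling it. These were leaving out DOCA-salt 1 (1.27, FDR = 3.18e-06), DOCA-salt 2 (1.29, FDR = 3.03e-05), Sham 1 (2.39, FDR = 0.00170) or high doublet scores (1.52, FDR = 0.0405), no filter of low counts (1.23, FDR = 0.00880) and pairing the libraries by number. Without Sham 2 the log2 change was 0.51 (FDR = 0.993), and in DESeq2 it was 1.17 and not called. *Sgk1* was enriched in members at 19.4, 11.4, 7.16 and 6.27 times its level in other nuclei, where it was at 24.7, 41.2, 44.5 and 13.8 CPM. In members at 1% gate share or more it was at 918, 932, 494 and 162 CPM. After thinning to 500 UMIs, 33.0%, 30.9%, 16.1% and 4.76% of members had an *Sgk1* UMI, against 1.38%, 2.08%, 2.27% and 0.687% of other nuclei. Other corticosteroid-responsive genes gave *Arrdc2* at 94.6, 76.9, 63.2 and 32.5 CPM (log2 change 0.84, FDR = 0.367, 0.34 without Sham 2 and 1.30 without Sham 1), the metallothionein *Mt2* at 94.6, 110, 197 and 140 CPM (−0.74, FDR = 0.352), *Tsc22d3* at 142, 158, 138 and 91.2 CPM and *Fkbp5* at 44.8, 33.5, 39.1 and 23.0 CPM.

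The genes of myelin itself gave 0 calls among 29 of 30 tested, with 4 genes entirely higher and 3 entirely lower in DOCA-salt, below the 22.7% and 15.9% of all genes, and a median log2 change of −0.16. *Tspan2*, a tetraspanin of myelin, was at 637, 455, 327 and 387 CPM (log2 change 0.53, FDR = 0.535). *Anln*, an actin-binding scaffold, was at 99.6, 74.2, 83.7 and 214 CPM (−0.97, FDR = 0.337, and −0.06 without Sham 2), and the protease gene *Adamts4* at 97.1, 36.6, 96.7 and 91.2 CPM (−0.82, FDR = 0.439). The lineage transcription factors gave 0 calls among 13 of 14 tested and a median log2 change of −0.30, with *St18* at 52.3, 44.8, 48.4 and 80.9 CPM and *Sox8* at 99.6, 61.5, 94.9 and 105 CPM. The groups overlapped for both.

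Cholesterol and lipid synthesis gave 0 calls among 31 of 32 genes, with 5 entirely higher and 3 entirely lower, again below the 22.7% and 15.9% of all genes, and a median log2 change of −0.08. *Insig1*, which holds back sterol synthesis, was at 144, 143, 78.1 and 77.0 CPM, with no overlap between groups. Its log2 change was 0.83 ± 0.25 (SE, edgeR FDR = 0.269), and in other nuclei it was 0.35. *Scd1*, a fatty acid desaturase, was at 112, 99.5, 130 and 147 CPM (−0.48, FDR = 0.540), and the lipid transporter *Abca2* at 578, 424, 305 and 377 CPM (0.47, FDR = 0.603).

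For ion transport and metabolic support, 0 of 26 genes were called and the median log2 change was −0.08. *Kcnj10*, the potassium channel Kir4.1, was at 199, 175, 221 and 254 CPM. *Aqp4*, a water channel mainly of astrocytes, was at 37.4, 24.0, 31.6 and 77.0 CPM, and *Apod*, a lipid carrier, at 438, 327, 409 and 726 CPM. The tonicity list gave 0 calls among 11 of 14 genes and a median log2 change of 0.08. In it, *Nfat5*, the transcription factor of the response to high salt, was at 157, 113, 100 and 108 CPM. The amino acid transporter *Slc38a2* was at 511, 424, 311 and 217 CPM (0.77, FDR = 0.352), and the bicarbonate transporter *Slc4a4* at 115, 112, 190 and 176 CPM (−0.76, FDR = 0.302).

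Among stress genes, 10 of the 11 heat shock genes tested had a negative log2 change, beside 5041 of the 10056 genes tested. In 4 of the 11 both DOCA-salt values lay below both Sham values, beside 15.9% of all genes, but 0 were called and the list median was −0.35. *Hsp90ab1*, a cytosolic chaperone, was at 994, 977, 2091 and 1508 CPM (−0.93, FDR = 0.264), and its log2 change in other nuclei was −0.79. *Hspa1a*, which shares near-identical sequence with *Hspa1b*, was at 7.47, 13.1, 76.3 and 7.14 CPM, high in Sham 1 alone. *Dnaja1* was at 309, 318, 536 and 378 CPM (−0.60, FDR = 0.470). Of 6 immediate early genes tested, 0 were called, with *Jun* at 72.2, 51.6, 110 and 77.8 CPM. Of 13 genes of disease-associated oligodendrocytes tested, 0 were called. The antigen presentation gene *H2-K1* was at 42.3, 34.8, 20.5 and 18.2 CPM (0.89, FDR = 0.399), the complement gene *C4b* at 19.9, 16.7, 24.2 and 27.8 CPM, and *Serpina3n*, a protease inhibitor, at 37.4, 21.3, 27.9 and 31.7 CPM.

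Of 24 genes that distinguish states of mature oligodendrocytes, 20 were tested and 1, *S100b*, was called lower, beside 0.0796% of all genes. Some of them, picked here after their values were seen, had Sham 2 far from the 3 other libraries. *Klk6*, a serine protease, was at 4.98, 3.17, 7.44 and 102 CPM, on 2, 7, 4 and 128 UMIs. *Hopx*, a homeodomain protein, was at 7.47, 6.33, 3.72 and 34.1 CPM. Both were too low in the other libraries to be tested. *Ptgds*, in contrast, was at 5130, 5261 and 3641 CPM in DOCA-salt 1, DOCA-salt 2 and Sham 1 and at 1726 CPM in Sham 2. Its log2 change was 0.89 ± 0.32 (SE, edgeR FDR = 0.367), and 0.46 without Sham 2 (FDR = 0.993). In members at 1% gate share or more, *Klk6* was at 7.65, 5.04, 10.1 and 258 CPM and *Ptgds* at 9203, 11398, 6830 and 2698 CPM, so Sham 2 stood as far apart in those nuclei. *Il33*, a cytokine gene, was at 187, 210, 182 and 203 CPM and *Car2*, carbonic anhydrase 2, at 919, 656, 657 and 712 CPM, with no such gap. *Anxa5*, an annexin, was at 29.9, 32.6, 50.2 and 60.3 CPM (−0.89, FDR = 0.323).

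Sham 2 was also high in *Enpp6*, a choline phosphodiesterase of newly formed oligodendrocytes, which was at 42.3, 17.2, 50.2 and 101 CPM (log2 change −1.83 ± 0.38, SE, edgeR FDR = 0.0719). It was called in 8 of 14 alternatives, among them at least 4 gate genes (−2.21, FDR = 0.0108), the 0.4% gate (−2.34, FDR = 0.0191) and the gate after thinning (−2.62, FDR = 0.0117), but not without Sham 2 (−1.11, FDR = 0.641) or DOCA-salt 2 (−0.99, FDR = 0.312). Of 10 genes of newly formed cells, 7 were tested and 0 called, with a median log2 change of −0.37. *Gfap*, an astrocyte filament gene, was at 22.4, 15.8, 20.5 and 117 CPM (−2.21, FDR = 0.0819). It was called in 7 of 13 alternatives, among them high doublet scores left out and the gate after thinning, but was −0.27 without Sham 2. The haemoglobin gene *Hbb-bs* was at 72.2, 76.0, 81.9 and 273 CPM. None of the 7 precursor, 9 astrocyte, 10 neuron, 6 microglia and 6 endothelial genes tested was called. In 4 of the 10 neuron genes both DOCA-salt values lay below both Sham values, beside 15.9% of all genes. Both lay above in 0, beside 22.7% of all genes. Of the neuron genes, 5 had a positive and 5 a negative log2 change, with a median of −0.09. The one of lowest p, *Rbfox3*, the neuronal nuclear marker NeuN, was at 82.2, 73.7, 201 and 121 CPM (−1.10, FDR = 0.152), and at −0.68 in other nuclei. *Ctss*, of microglia, was at 12.4, 13.6, 29.8 and 31.7 CPM and *Flt1*, of endothelium, at 17.4, 14.0, 33.5 and 28.6 CPM. The part of these other cell types in the 8 calls was not tested.

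Peptides of hypothalamic neurons, which oligodendrocytes are not known to make, were detected in members. Of 16 listed, 14 were tested and 2, *Npy* and *Nts*, were called lower, beside 0.0796% of all genes. *Pmch*, a peptide of the neighbouring lateral hypothalamus, was at 4.98, 1450, 57.7 and 11.9 CPM in members and at 29.5, 2895, 43.6 and 31.3 CPM in other nuclei, high in DOCA-salt 2 alone. *Oxt*, oxytocin, was at 7.47, 368, 108 and 167 CPM. Of 13 mitochondrial genes, 1, *mt-Atp8*, was called lower, beside the same 0.0796%, and *mt-Nd3* was at 692, 667, 1148 and 1028 CPM (−0.74, FDR = 0.352). In 6 of the 13 both DOCA-salt values lay below both Sham values, beside 15.9% of all genes. Both lay above in 1, beside 22.7% of all genes.

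Whether responses were particular to mature oligodendrocytes was tested as the difference between their change and that of all other nuclei in the same libraries, with the library as a block. Of 15264 genes, 26 had a more positive change in members (0.17%) and 3 a more negative one (0.0197%). All 8 gate genes were among the 26, and since the rule used them their differences are not read as results. In *Mobp* (0.90 on the log2 scale), the members' levels overlapped between groups, whereas other nuclei had 66.1 and 202 CPM under DOCA-salt, below the 293 and 235 CPM under Sham. The gate removed many but not all myelin-rich barcodes from the other nuclei, so values of myelin genes there are tied to the rule. Barcodes with all 8 gate genes that stayed there numbered 5, 16, 21 and 29. In other nuclei the gate genes summed to 94.5, 291, 484 and 358 CPM, lower in both DOCA-salt libraries. With other nuclei limited to those with at most 1 gate gene, 9 genes were called.

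*Sgk1* was among the other 18, with a difference of 1.08 ± 0.17 (SE, edgeR FDR = 1.43e-07). Its ratio of members to other nuclei was higher in both DOCA-salt libraries (19.4 and 11.4) than in both Sham libraries (7.16 and 6.27). *Sgk1* was called in all 9 alternatives to this fit, between 0.79 and 1.81. Its size was similar to that of *Mobp* (0.90) and *Cnp* (0.87) in the same fit. *Sgk1* differed from them in its members' levels, which were higher in DOCA-salt, while its levels in other nuclei overlapped. *Gatm* (0.89), called in the same fit, had the same pattern. It was at 764, 721, 495 and 510 CPM in members and at 33.6, 76.5, 76.6 and 60.1 CPM in other nuclei. *Ptgds* had a difference of 0.63 (edgeR FDR = 0.000112), which was not called in 4 of 9 alternatives, among them that with at most 1 gate gene in other nuclei (0.63, FDR = 0.606). *Slc38a2* had a difference of 0.62 (edgeR FDR = 0.0203) and lost its call in 7 of 9 alternatives, with a range from 0.40 to 1.02. The more negative differences were those of *Hopx* (−2.17), *Gfap* (−1.32) and the neuropeptide *Cartpt* (−0.67). *Gfap* without Sham 2 gave −0.35 (FDR = 1.00), and *Hopx* 0.02.

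Compared with the 645 oligodendrocyte precursors, gated on *Pdgfra*, *Cspg4* and other precursor genes, the change of 4 of 9372 genes was more positive in members (0.0427%) and that of 4 more negative (0.0427%). *Ptgds* was at 224, 241, 714 and 155 CPM in precursors and gave a difference of 1.60 ± 0.28 (SE, edgeR FDR = 0.000135). Its call was lost in 4 of 7 alternatives, with a range from 0.98 to 2.12. *S100b*, at 160, 184, 288 and 249 CPM in precursors, gave −1.25 (edgeR FDR = 0.0157). That call was lost in 5 of 7 alternatives, and without Sham 2 the difference was −0.24. *Npy*, at 155, 12.7, 54.6 and 72.2 CPM in precursors, gave −2.02 (FDR = 0.00123), and −0.69 without DOCA-salt 1 (FDR = 0.999). *Oxt* gave 3.43, and 1.40 without Sham 2, with 2.46, 138, 109 and 1037 CPM in precursors, the value of Sham 2 standing apart. The haemoglobin genes *Hbb-bs* and *Hba-a1* gave −2.28 and −2.59, and without DOCA-salt 2 the values were 0.0633, of the opposite sign, and −1.27. The other 2 calls, both more positive, were the gate genes *Mal* and *Cldn11*, whose differences are not read as results. The difference of *Sgk1* from precursors, 0.49 ± 0.40, was not called, and precursors held it at 73.9, 68.3, 69.5 and 17.5 CPM. Precursor sums were small, with 32 nuclei in Sham 1.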

How the data were processed

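The authors processed the reads with Cell Ranger 3.0.1 against mm10 and deposited a matrix of UMI counts per gene and barcode for each library. Barcodes with more than 200 and fewer than 7000 genes, under 25000 UMIs and under 15% mitochondrial UMIs were kept, which left 10307, 18907, 2203 and 7759 barcodes of DOCA-salt 1, DOCA-salt 2, Sham 1 and Sham 2. The members, gene lists and tests were chosen with earlier results of these data known.

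Counts of members were summed per library and tested with edgeR 4.0.16 (quasi-likelihood, TMM scaling, filterByExpr) in R 4.3.3. DESeq2 1.42.0 was an alternative. Differences in response were fitted on sums of members and of another population, with library, population and population by treatment as terms. The fits were also run on simulated counts with large known changes and equal spread in every gene. That run does not cover small changes or genes with an outlying library. A test over single nuclei, as in the study, was not run, since nuclei of 1 library are not replicates. Doublets were kept, and an alternative left out the highest Scrublet scores (scanpy 1.11.5), in proportion to the number of barcodes, because the automatic threshold marked almost none. That alternative removed 34, 125, 0 and 16 members. Shares were compared by an exact permutation test in scipy 1.17.1, and intervals cover counting error only. Coordinates are GENCODE M21 on GRCm38. Named were the gate and marker genes, all genes called, the 3 of lowest p in each list, the top gene of lists of other cell types and the 5 largest differences on each side. Receptor and other list genes beyond these were added after their values were seen. Results of some genes are not reported here.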

Additional observations from a re-analysis of the deposited data

Results flagged for a closer look

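The differences below are changes (DOCA-salt over Sham, log2) in mature oligodendrocytes minus those in a second population of the same libraries, each called by edgeR at FDR under 0.05 in a fit with the library as a block. They were singled out because the response differed between the populations.

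Values of myelin genes in the other nuclei are tied to the gate. With other nuclei limited to at most 1 gate gene, 9 of the 29 calls remained. Against all other nuclei, the myelin genes *Tspan2* (1.01), *Tmem88b* (0.99), *Ppp1r14a* (0.95), *Mobp* (0.90), *Cnp* (0.87) and *Mbp* (0.68) had a more positive change. So had *Sgk1* (1.08), *Litaf* (1.03), *Car2* (0.99), *Gatm* (0.89), *Tsc22d4* (0.79), the small heat shock protein gene *Cryab* (0.74), the long non-coding RNA *Neat1* (0.73), *Csrp1* (0.69), *Ptgds* (0.63), *Slc38a2* (0.62) and *Sez6l2* (0.61). *Neat1* was 0.35 without DOCA-salt 1 and 0.37 without Sham 1, *Gatm* 0.36 without DOCA-salt 1 and *Slc38a2* 0.40 without Sham 2, none of them called there. A more negative change was found for *Hopx* (−2.17), *Gfap* (−1.32) and *Cartpt* (−0.67). *Hopx* and *Gfap* were not called without Sham 2, and *Cartpt* was −0.39 without DOCA-salt 1 and −0.47 without Sham 1, not called.

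Against precursors, *Oxt* (3.43) and *Ptgds* (1.60) had a more positive change, and *Hba-a1* (−2.59), *Hbb-bs* (−2.28), *Npy* (−2.02) and *S100b* (−1.25) a more negative one. Without DOCA-salt 2, *Hbb-bs* turned to 0.0633 and *Hba-a1* was −1.27, neither called, and without Sham 2 neither *S100b* (−0.24) nor *Oxt* (1.40) was. *Ptgds* lost its call in 4 of 7 alternatives. The part of blood and neuron RNA in the values of the haemoglobin and peptide genes was not tested.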

How the results depend on the processing

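Of the alternatives tried, *Bc1* was called in all 15 of its own. The count of genes called in members, 8, was 7 with at least 4 gate genes and 8 with no upper limits on barcodes. It was 2 in DESeq2, 5 with RLE size factors, 30 with high doublet scores left out, 22 with the gate applied after thinning, 3 with 0.4% or more on gate genes, 3 with 1% or more (chosen after seeing the data), 1 with members thinned to 500 UMIs and 69 with no filter of low counts. With the libraries paired by number (replicate block) it was 38, 9 higher and 29 lower, with *Sgk1* among them at 1.45 (FDR = 0.0104), but the libraries share only a number (correlation of deviations −0.08). Without 1 library the count ran from 20 to 454, where 1 group's lone library is assumed to vary like the other group. Of the 8 genes, thinning left 4 testable and the 1% gate 5.

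Against other nuclei, the 29 calls became 16 after thinning, 9 with other nuclei limited to at most 1 gate gene, and 11 to 101 without 1 library. Against precursors, the 8 became 5 with RLE size factors, 1 after thinning, and 2 to 13 without 1 library. *Ptgds* against precursors was called without Sham 2, where it was 2.12 on the log2 scale, but not without any other library.

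The share difference was 0.0344 points at the 1% gate and −2.97 to 0.87 without 1 library. Leaving out DOCA-salt 2 turned *Pmch* to −2.54 (range to 5.91) and the *Hbb-bs* difference to 0.0633 (range from −2.77), and leaving out Sham 2 turned that of *Hopx* to 0.0249 (range from −2.69). The causes were not tested. A fit without mixed nuclei was not run, since it left 0 members in Sham 1. Depth limits low genes most in DOCA-salt 1, where 3 counts are 7.47 CPM.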
